A study of Mus musculus with 16 samples.

Results

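The 38 genes described here carry out fatty acid oxidation and the making of ketone bodies. They were found by matching the accession of each array probe to a RefSeq gene symbol from a list of names, and that list was drawn up with earlier results of these data known. All 38 were on the array, out of 20660 genes with a symbol, and they had 45 of its 55681 probes. Tests were limited to the 29690 probes whose liver channel stood well above background on 3 or more arrays in 1 or more groups. Of the members' probes 44 passed and stood for 37 genes. The single probe of Acot2, a mitochondrial thioesterase, did not rise well above background on a single array and has no value below. By the site of their step 21 members are mitochondrial and 9 peroxisomal, and 8 act elsewhere or in both.

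The livers came from female B6C3F1 mice, a hybrid strain common in toxicology, bought at 5 to 6 weeks of age and acclimatized for at least 7 days. Furan mice received 8 mg furan per kg body weight in corn oil by oral gavage for 21 days and control mice corn oil alone, and in both the liver was removed 4 h after dosing ended. Before paraffin embedding the tissue lay in formalin for 18 h or 3 weeks, and RNA came from 1 section of 10 µm at 18 h but from 2 such sections at 3 weeks. The number of sections and the time in formalin therefore cannot be told apart. Each of 16 two-colour Agilent arrays carried 1 liver sample in Cy5 and a pool of all samples in Cy3, with 4 arrays in each of the 4 groups. The 3-week control arrays 2.1 and 2.2 share the number 2, were read as 1 animal and were averaged, which left 15 samples and 3 controls at 3 weeks. The labels give 4 biological replicates per dose group but do not say whether a number marks the same animal at both times. All values are log2 ratios of a sample to the pool for the brightest tested probe of a gene. They compare samples and not the levels of different genes.

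Fatty acids are bound and activated to acyl-CoA in the cytosol, carried into mitochondria as carnitine esters, and shortened there in repeated rounds of dehydrogenation, hydration, a further dehydrogenation and thiolysis. Electrons from the acyl-CoA dehydrogenases reach the respiratory chain through the electron transfer flavoprotein, and in liver much of the acetyl-CoA becomes ketone bodies for export. Peroxisomes shorten very long and branched chains by a parallel set of enzymes. Many of these genes are known targets of the nuclear receptor PPARA, which binds with RXRA to a direct repeat of the half-site AGGTCA with 1 base between the copies.

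The promoter table from RefSeq, build GRCm38.p6, held 36 starts of 33 members. It was searched in the 250 bases before each start, on both strands, for AGGTCANAGGTCA, a motif that contains the half-site AGGTCA. No member promoter held it without a mismatch, and 11 of all 32851 promoters did (0.0335%). With at most 2 mismatches it was found in 4 member promoters (11.1%) against 3.24% of all promoters, and with at most 3 in 13 (36.1%) against 21.3%. The half-site itself was in 7 member promoters (19.4%) and in 14.0% of all. The median GC content was 57.8% in the member promoters and 52.4% in all. A match of letters is a description, and no binding was measured in this series. The following 5 are shown because they carry the closest match or belong to members on which the results below turn, with the closest match of at most 3 mismatches in capitals. Fabp1 (chr6:71199629-71199878, plus strand) had the closest match of all members, with 1 mismatch. Echs1 (chr7:140116422-140116671, minus strand) and Etfa (chr9:55512244-55512493, minus strand) each had a match with 2 mismatches. Slc25a20 (chr9:108661886-108662135, plus strand) and Hadhb (chr5:30155003-30155252, plus strand) had none within 3 mismatches. The window of Hadha (chr5:30154981-30155230, minus strand) overlaps that of Hadhb, so the genes of both subunits of 1 enzyme start back to back.
Fabp1: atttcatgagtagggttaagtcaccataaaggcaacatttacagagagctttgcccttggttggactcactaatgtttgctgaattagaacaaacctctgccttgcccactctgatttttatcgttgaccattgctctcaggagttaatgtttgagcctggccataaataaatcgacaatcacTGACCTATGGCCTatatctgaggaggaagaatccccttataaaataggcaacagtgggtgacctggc
Echs1: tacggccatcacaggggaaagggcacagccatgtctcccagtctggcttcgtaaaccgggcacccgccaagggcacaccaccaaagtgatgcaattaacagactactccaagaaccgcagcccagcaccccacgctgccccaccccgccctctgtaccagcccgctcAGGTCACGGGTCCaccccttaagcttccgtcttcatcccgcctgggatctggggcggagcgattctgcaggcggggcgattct
Etfa: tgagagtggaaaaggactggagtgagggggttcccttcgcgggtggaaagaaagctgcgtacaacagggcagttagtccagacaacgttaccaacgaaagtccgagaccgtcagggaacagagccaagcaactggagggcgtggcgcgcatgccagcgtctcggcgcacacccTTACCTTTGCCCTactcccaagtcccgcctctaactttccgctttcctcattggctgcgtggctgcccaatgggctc
Slc25a20: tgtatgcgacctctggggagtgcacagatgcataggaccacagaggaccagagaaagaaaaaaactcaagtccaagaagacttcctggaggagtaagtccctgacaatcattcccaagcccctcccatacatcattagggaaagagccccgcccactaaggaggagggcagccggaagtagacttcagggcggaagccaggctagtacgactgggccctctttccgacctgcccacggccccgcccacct
Hadhb: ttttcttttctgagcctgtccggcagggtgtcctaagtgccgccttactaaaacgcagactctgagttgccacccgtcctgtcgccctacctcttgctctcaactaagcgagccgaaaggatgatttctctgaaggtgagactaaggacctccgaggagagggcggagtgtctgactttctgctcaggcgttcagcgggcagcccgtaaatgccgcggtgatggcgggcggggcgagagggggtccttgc

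Probes well above background made up 44.3% to 50.1% of those on the 18 h control arrays, 51.9% to 55.2% on the 18 h furan arrays, 32.3% to 36.7% on the 3-week control arrays and 35.9% to 41.4% on the 3-week furan arrays, and no spot was saturated. This share was thus higher on every furan array than on any control array at 18 h, and lower on every 3-week array than on any 18 h array. RNA integrity numbers were 1.3 to 2.4. All 10 hepatocyte markers, Alb and Apoa1 among them, were well above background on every array. Their mean log2 ratio was 0.40 to 0.50 in the 18 h controls and -0.11 to 0.06 in the 18 h furan samples, with 7 of 10 markers called lower in furan and 0 higher after loess, while after median centring of each array these means overlapped, at 0.58 to 0.82 and 0.46 to 1.00. Under that centring 3 of the 10 were called higher and 2 lower. At 3 weeks the mean after loess was -0.48 to -0.11 in controls and -0.66 to -0.27 in furan samples. The mean of 5 tested erythroid markers was also apart at 18 h, at -0.10 to 0.10 in controls and -0.68 to -0.51 in furan samples, with 4 of 5 markers called lower. After median centring these means overlapped (-0.19 to 0.05 and -0.46 to -0.05), but 3 of 5 markers were still called lower and 1 higher. The means of the tested Kupffer cell, stellate, endothelial and lymphocyte markers overlapped between the treatments at 18 h after loess. These means hold opposite calls, with 2 higher and 4 lower of 8 stellate and 2 higher and 3 lower of 6 endothelial markers. Of 6 Kupffer cell and 4 lymphocyte markers 1 each was called lower. Of all genes 27.1% were called higher and 24.1% lower after loess, and no such share is given after centring. Only 2 biliary and 2 adipocyte markers were tested, and their means were lower in furan without overlap, at 0.26 to 0.61 against 0.00 to 0.17 and at -0.34 to -0.24 against -0.81 to -0.40. After median centring the adipocyte means overlapped, while those of the stellate and endothelial markers were higher in furan without overlap (-0.02 to 0.09 against 0.16 to 0.50, and 0.01 to 0.11 against 0.12 to 0.43). The part of cell makeup and of the share of probes above background in the results below was not tested. In whole liver, fewer cells of a type and less RNA per cell cannot be told apart.

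At 18 h in formalin, furan livers had more of some fatty acid oxidation transcripts and less of others. Of the 37 tested members 12 were higher and 11 lower at an adjusted p under 0.05 (limma with the slide as a term, two-sided, adjusted by Benjamini-Hochberg over all 29690 probes; 4 furan and 4 control samples). Over the 13052 genes tested with a symbol 51.2% were called, 27.1% higher and 24.1% lower, against 62.2% of the members, 32.4% higher and 29.7% lower. The median change was 0.03 over the members and 0.02 over all genes. The groups did not overlap for 21 of 37 members (56.8%) and for 44.5% of all genes. Fitted on slide 1 alone 14 members were called and on slide 2 alone 15, and all 23 had the same sign on both slides. The slides are parts of the samples that gave these calls, so the shared sign is no separate check. The p values set each difference against the spread between these samples, moderated over all tested probes. The small number of samples limits their precision. Mitochondrial members gave 8 higher and 6 lower of 20, peroxisomal members 3 higher and 1 lower of 9, and the others 1 higher and 4 lower of 8. Each member counts by its brightest probe, and the other probes of Cpt2 (counted higher) and Etfa (counted lower) were called the opposite way.

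**Figure D1:**
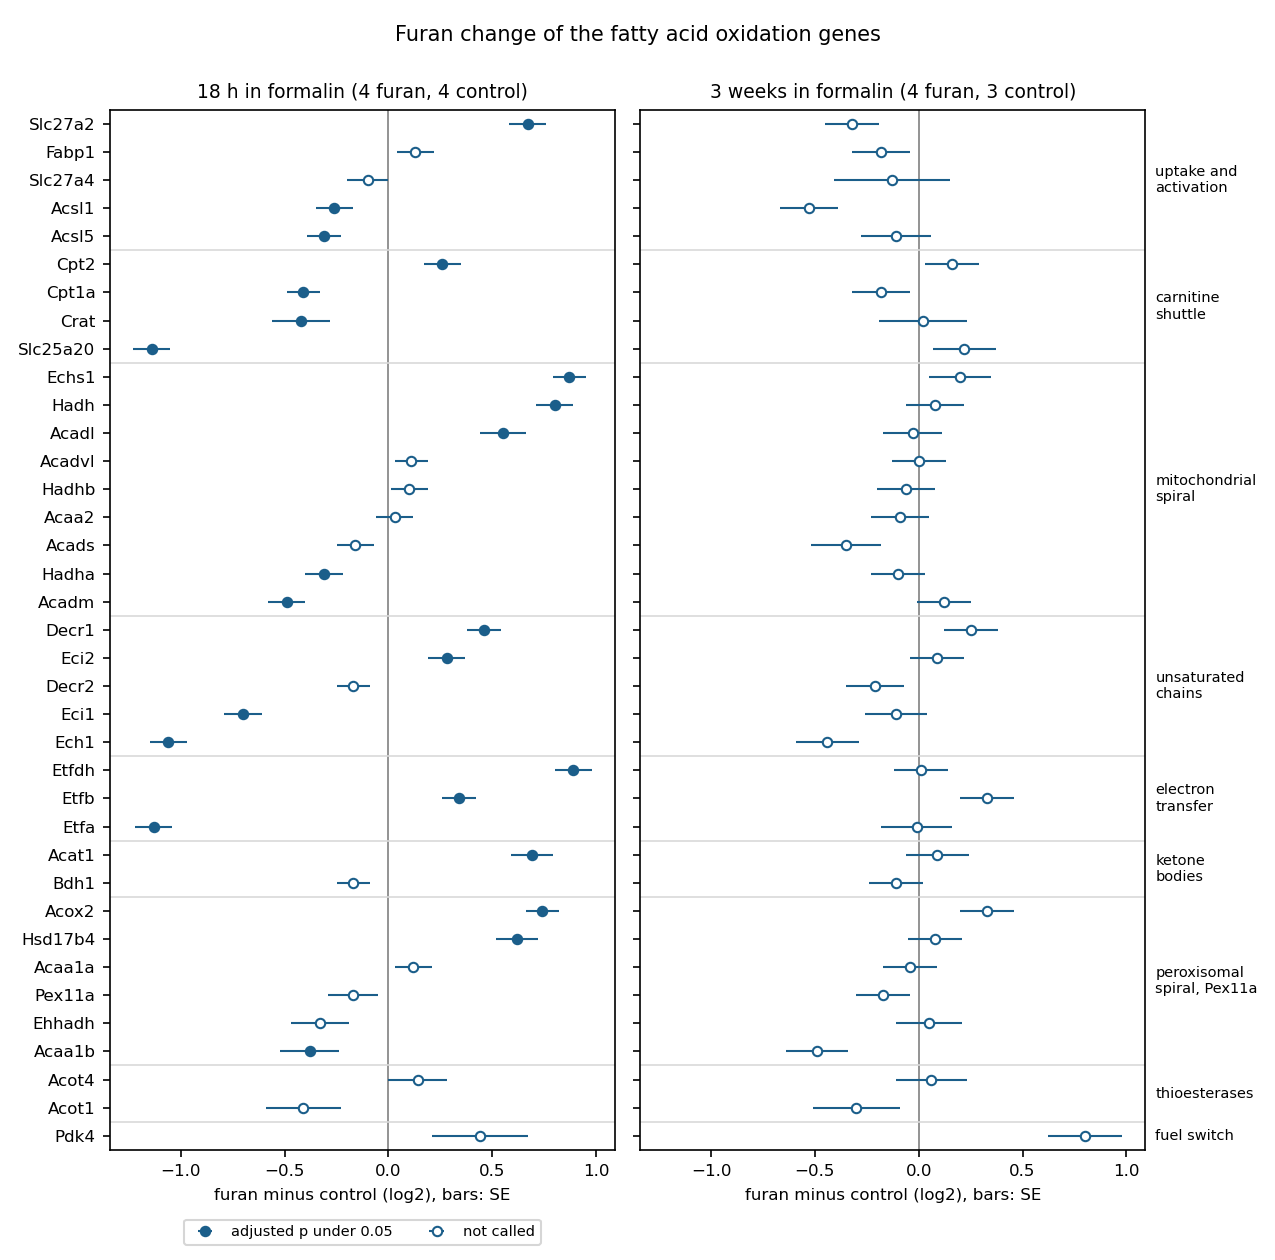
Furan minus control in log2 units for the 37 tested members, grouped by role, at 18 h (left) and at 3 weeks (right); points are limma estimates, bars their SE, and filled points have an adjusted p under 0.05. At 18 h the estimates run from -1.14 for Slc25a20 to 0.89 for Etfdh with 23 filled points, and at 3 weeks none is filled; with median centring in place of loess at 18 h, the filled Acaa1b, Acadm, Acsl1, Acsl5 and Hadha and the open Acot1, Bdh1, Decr2, Ehhadh, Pex11a and Slc27a4 have the opposite sign.

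The direction of several falls rested on the normalization within arrays. The members are bright, with a median percentile of 96.0 among all 55681 probes and 25 of 37 over the 90th. Loess removes any trend of the ratio with brightness on an array, while centring each array on its median, tried after seeing the data, leaves it in. Centring moved the median of all probes at 18 h from -0.05 to 0.10 and the median of the members from 0.03 to 0.38. All 12 rises were called under centring as well. Of the 11 falls 3 were still called (Slc25a20, Etfa and Ech1), Crat (-0.28), Eci1 (-0.16) and Cpt1a (-0.05) kept their sign without a call, and Acaa1b, Acadm, Acsl1, Acsl5 and Hadha turned positive. Centring gave 21 higher and 3 lower members, Agilent's own log ratio 10 and 6, the authors' deposited values 14 and 7, and loess without background subtraction 11 and 15. No share over all genes is given under these settings, so these counts have no background beside them. The mean log2 ratio of the 37 members was 0.47 to 0.68 in furan samples and -0.03 to 0.17 in controls after centring. No called member changed sign in Agilent's ratio or in the authors' values.

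**Figure D2:**
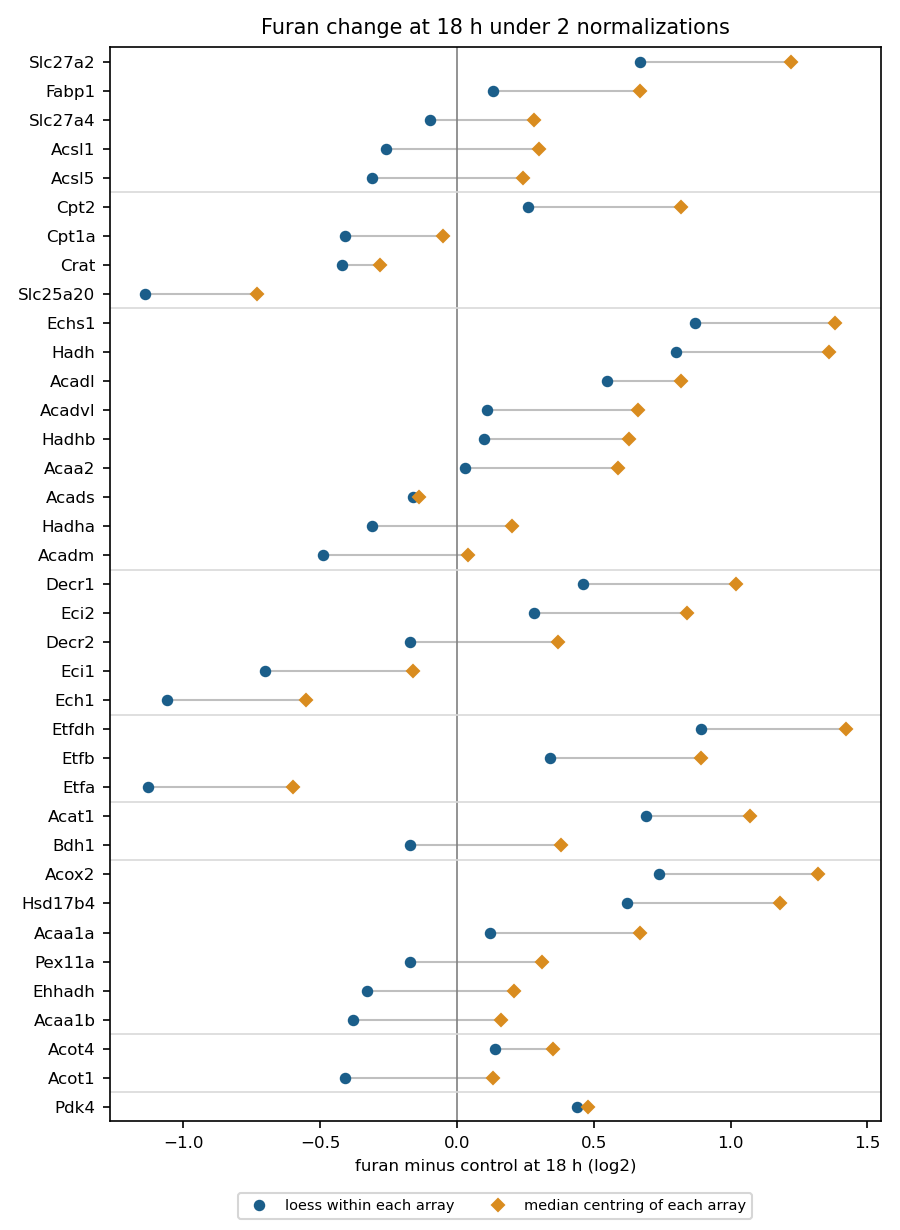
Furan minus control at 18 h (log2) for the 37 tested members after loess within each array (circles) and after median centring of each array (diamonds), joined by lines. Under centring 30 of 37 members lie above 0 against 19 under loess, and Slc25a20, Etfa and Ech1 are called lower under both. Points are the brightest probe of each gene, and the other probe of Etfa was called higher after loess.

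Of the 5 genes of uptake and activation, 1 was higher and 2 lower. Slc27a2, which imports very long-chain fatty acids and activates them, had log2 ratios of -0.32, -0.25, -0.20 and -0.47 in controls 2, 3, 4 and 6 and of 0.45, 0.25, 0.33 and 0.43 in furan samples 41 to 44. Every furan sample was above every control, and the difference was 0.67 ± 0.09 (SE; 1.59-fold higher; limma adjusted p = 0.000211). Acsl5, a long-chain acyl-CoA synthetase, read 0.33, 0.54, 0.51 and 0.36 in controls and 0.31, 0.09, 0.04 and 0.07 in furan samples. The groups lay apart, if narrowly between control 2 and furan sample 41, and the difference was -0.31 ± 0.08 (adjusted p = 0.0106) by loess but 0.24 under median centring. The other synthetase, Acsl1, was -0.26 ± 0.09 with overlapping groups (adjusted p = 0.0354), and 0.30 under centring. Fabp1, the abundant fatty acid binding protein of the hepatocyte whose promoter held the closest motif match, read 0.09, 0.17, -0.12 and 0.02 in controls and 0.23, 0.08, 0.17 and 0.18 in furan samples. Its groups overlapped and its difference of 0.13 ± 0.09 was not called (adjusted p = 0.272), though centring (0.67) and the authors' values called it higher. Slc27a4, another fatty acid transporter, was not called (-0.10).

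In the carnitine shuttle, 3 of 4 members were lower and 1 higher. The largest fall among all members was that of Slc25a20, the translocase that carries acylcarnitines across the inner mitochondrial membrane. Its ratios were 0.86, 0.74, 0.68 and 0.77 in controls and -0.44, -0.28, -0.47 and -0.31 in furan samples. All 4 furan samples were far below all 4 controls, by 1.14 ± 0.09 on the log2 scale (SE; limma adjusted p = 1.29e-05). Cpt1a, the outer-membrane acyltransferase that limits the rate of entry, read 0.33, 0.44, 0.49 and 0.46 in controls and 0.15, -0.04, -0.01 and -0.03 in furan samples. The groups did not overlap, with furan sample 41 nearest to the controls, and the change was -0.41 ± 0.08 (adjusted p = 0.0023), which shrank to -0.05 under median centring. Crat, which moves acetyl groups onto carnitine, was lower by loess with overlapping groups (-0.42 ± 0.14, adjusted p = 0.028). Cpt2, the inner-membrane partner of Cpt1a, was higher by its brighter probe (0.26 ± 0.09, adjusted p = 0.0328). Its other probe was called lower, as given below, so its direction is uncertain.

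The 9 genes of the mitochondrial spiral had 3 rises and 2 falls. Echs1, the hydratase for short chains, read -0.55, -0.32, -0.42 and -0.39 in controls and 0.60, 0.47, 0.35 and 0.37 in furan samples. Every furan sample was above every control, with a difference of 0.87 ± 0.08 (SE; 1.82-fold higher; limma adjusted p = 3.35e-05). Hadh, the dehydrogenase that follows it, read -0.68, -0.63, -0.59 and -0.40 in controls and 0.33, 0.18, 0.15 and 0.23 in furan samples. It too was higher without overlap, by 0.80 ± 0.09 (1.74-fold; adjusted p = 9.26e-05). For Acadl, the long-chain acyl-CoA dehydrogenase, controls read -0.18, 0.02, 0.00 and 0.22 and furan samples 0.71, 0.52, 0.65 and 0.36. The groups lay apart, with a difference of 0.55 ± 0.11 (adjusted p = 0.0024).

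The medium-chain dehydrogenase Acadm read 0.29, 0.23, 0.45 and 0.21 in controls and -0.06, -0.23, -0.33 and -0.18 in furan samples. Its groups did not overlap, with a change of -0.49 ± 0.09 (SE; limma adjusted p = 0.00125) by loess, but it was 0.04 under median centring. Hadha, the alpha subunit of the trifunctional protein that completes the rounds of long chains, read 0.33, 0.57, 0.53 and 0.57 in controls and 0.32, 0.27, 0.10 and 0.09 in furan samples. Control 2 and furan sample 41 all but met, and the difference of -0.31 ± 0.09 (adjusted p = 0.013) turned to 0.20 under median centring. The beta subunit Hadhb, which starts back to back with it, was at 0.10 and not called. Acaa2, the thiolase that releases acetyl-CoA, read 0.11, 0.19, 0.13 and 0.34 in controls and 0.32, 0.22, 0.19 and 0.17 in furan samples. These groups overlapped fully (0.03 ± 0.09, adjusted p = 0.791), although under centring the value was 0.59 and called. Acadvl (0.11) and Acads (-0.16), the dehydrogenases for very long and short chains, were not called.

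**Figure D3:**
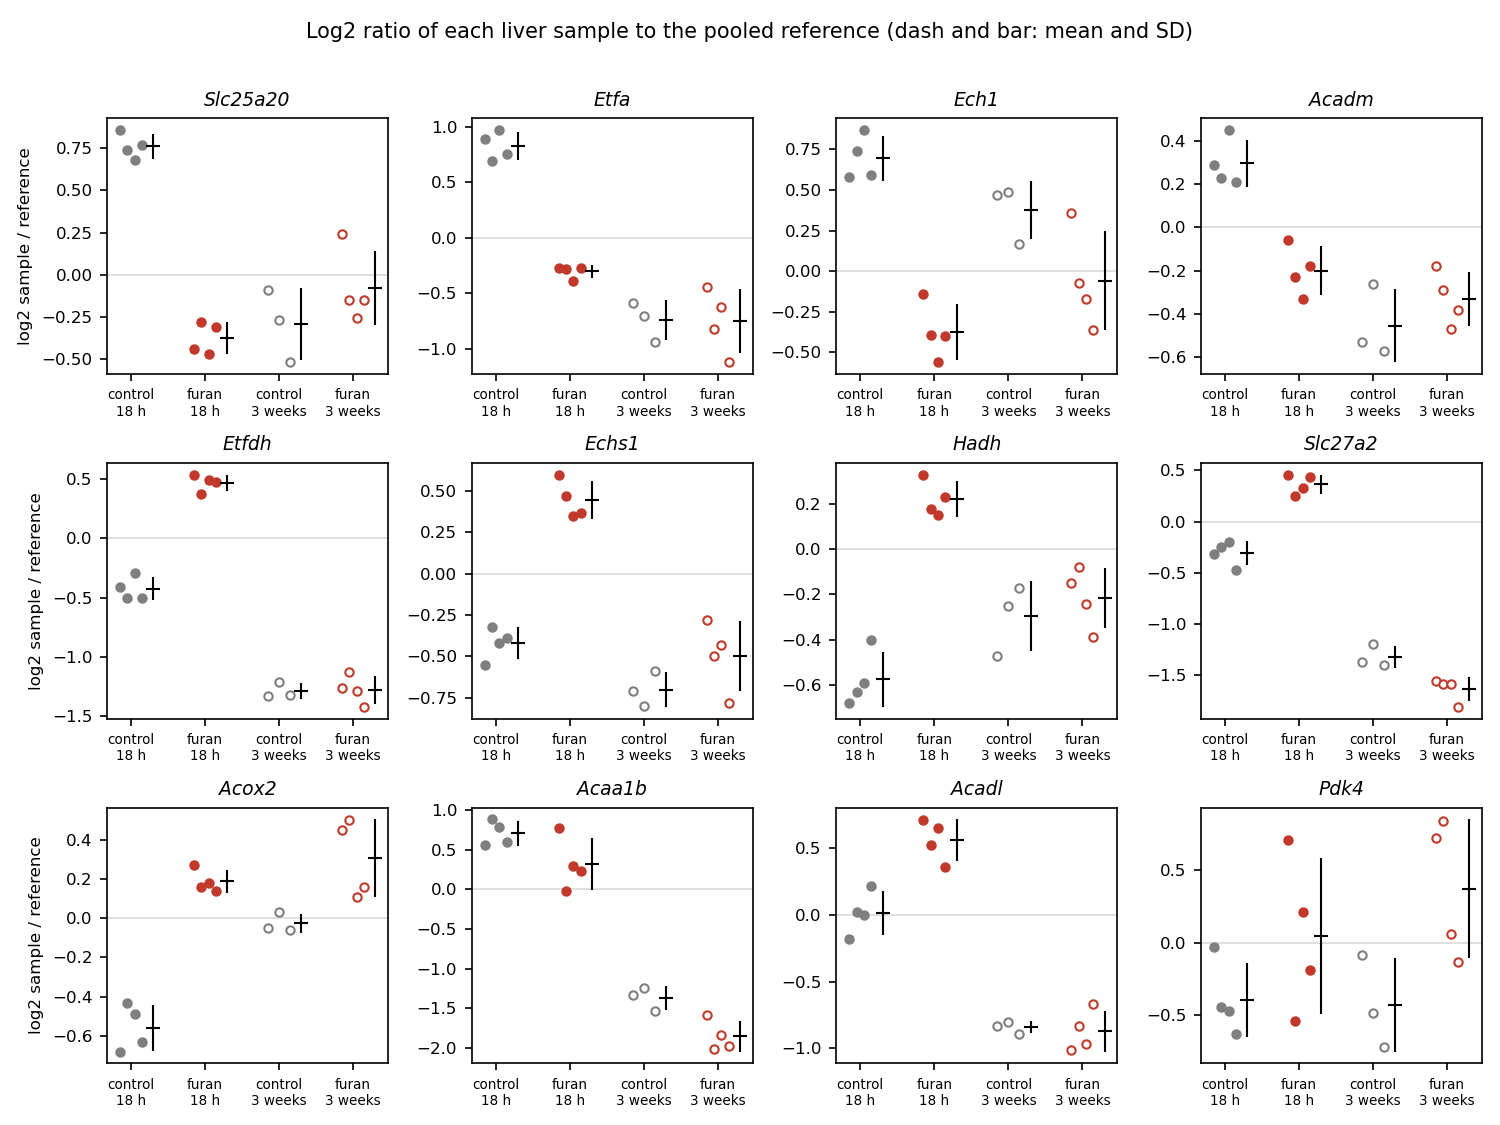
Log2 ratio of each liver sample to the pooled reference for 12 members, by group, with the mean and SD beside the points (4 samples in each group, 3 in the 3-week controls). At 18 h the furan samples of Slc25a20, Etfa, Ech1 and Acadm lie below all controls and those of Etfdh, Echs1, Hadh, Slc27a2, Acox2 and Acadl above them, while at 3 weeks Acox2, Slc27a2 and Acaa1b are the panels without overlap; Acadm and Acaa1b at 18 h have the opposite sign under median centring, as has Slc27a2 at 3 weeks.

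The auxiliary enzymes that prepare unsaturated chains for the spiral had 2 rises and 2 falls among 5. Ech1, a dienoyl-CoA isomerase, read 0.58, 0.74, 0.87 and 0.59 in controls and -0.14, -0.39, -0.56 and -0.40 in furan samples. It was lower in every furan sample than in any control, by 1.06 ± 0.09 on the log2 scale (SE; 2.09-fold lower; limma adjusted p = 1.94e-05). Eci1, the mitochondrial enoyl-CoA isomerase, read 0.88, 0.58, 0.58 and 0.78 in controls and 0.05, -0.21, 0.04 and 0.14 in furan samples. Its groups lay apart, with a change of -0.70 ± 0.09 (adjusted p = 0.000143). Decr1, the mitochondrial dienoyl-CoA reductase, rose by 0.46 ± 0.08 (adjusted p = 0.0014) and Eci2, an isomerase found in peroxisomes, by 0.28 ± 0.09 (adjusted p = 0.0298). Decr2, the peroxisomal reductase, was not called (-0.17), although its groups did not overlap, and was called higher under median centring (0.37, adjusted p = 0.0174).

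All 3 genes of electron transfer were called, 2 higher and 1 lower. The largest rise among the members was that of Etfdh, the oxidoreductase that hands electrons to ubiquinone, with -0.41, -0.50, -0.29 and -0.50 in controls and 0.53, 0.37, 0.49 and 0.47 in furan samples. The samples were tightly grouped and 0.89 ± 0.09 apart (SE; 1.85-fold higher; limma adjusted p = 3.67e-05). Etfa, the alpha subunit of the flavoprotein, read 0.89, 0.69, 0.97 and 0.75 in controls and -0.27, -0.28, -0.39 and -0.27 in furan samples. All furan samples were below all controls, by 1.13 ± 0.09 (2.18-fold lower; adjusted p = 1.66e-05). The other probe of Etfa was called higher, as given below, so its direction is uncertain. Etfb, the beta subunit of the same dimer, was higher (0.34 ± 0.08, adjusted p = 0.0049).

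Acat1, which joins acetyl-CoA to acetoacetyl-CoA in the making and use of ketone bodies, read -0.29, -0.37, -0.33 and -0.16 in controls and 0.46, 0.27, 0.58 and 0.27 in furan samples. It was higher without overlap, by 0.69 ± 0.10 (SE; 1.61-fold; limma adjusted p = 0.00027). Bdh1, which interconverts the ketone bodies acetoacetate and 3-hydroxybutyrate, read 0.34, 0.22, 0.32 and 0.43 in controls and 0.08, 0.04, 0.22 and 0.28 in furan samples. Its groups overlapped at -0.17 ± 0.08 (adjusted p = 0.0915), and the value was 0.38 and called under median centring.

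Of the 6 genes of the peroxisomal spiral and Pex11a, 2 were higher and 1 lower. Acox2, the oxidase for branched chains and bile acid intermediates, read -0.68, -0.43, -0.49 and -0.63 in controls and 0.27, 0.16, 0.18 and 0.14 in furan samples. The groups were well apart, at 0.74 ± 0.08 (SE; 1.68-fold higher; limma adjusted p = 6e-05). Hsd17b4, the bifunctional enzyme that follows it, read -0.40, -0.12, -0.35 and -0.25 in controls and 0.48, 0.26, 0.41 and 0.23 in furan samples. It was also higher without overlap, by 0.62 ± 0.10 (1.54-fold; adjusted p = 0.000455). The other bifunctional enzyme, Ehhadh, a well-known PPARA target, read 0.27, 0.48, 0.65 and 0.41 in controls and 0.42, -0.17, -0.11 and 0.34 in furan samples. Samples 41 and 44 lay among the controls and 42 and 43 below them, and the difference of -0.33 ± 0.14 was not called (adjusted p = 0.078), with 0.21 under centring. Acaa1b, a thiolase, read 0.56, 0.88, 0.78 and 0.59 in controls and 0.77, -0.02, 0.29 and 0.23 in furan samples. Sample 41 lay among the controls, and the value of -0.38 ± 0.14 (adjusted p = 0.0463) turned to 0.16 under median centring and was not called without any single control, nor without furan sample 42 (-0.21), 43 or 44. Its paralog Acaa1a (0.12) and Pex11a (-0.17), which drives peroxisome division, were not called, and signal from close copies such as Acaa1a and Acaa1b could mix on the array.

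Neither tested thioesterase was called, with 0.14 for the peroxisomal Acot4 and -0.41 for the cytosolic Acot1. Pdk4, the kinase that shuts off pyruvate dehydrogenase when fat is burned, read -0.03, -0.44, -0.47 and -0.63 in controls and 0.71, -0.54, 0.21 and -0.19 in furan samples. The furan samples were widely spread and overlapped the controls (0.44 ± 0.23, limma adjusted p = 0.138). It was a dim probe, well above background on 1 of 4 control and 4 of 4 furan arrays.

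For 6 members more than 1 probe was tested, and the probes did not always give the same result. Cpt2 and Etfa had opposite calls. The brighter probe of Cpt2 was higher in furan at 0.26, and its other probe was lower at -1.07 ± 0.10 (SE; limma adjusted p = 2.59e-05). The brighter probe of Etfa was lower at -1.13, and its other probe was higher at 0.38 ± 0.09 (adjusted p = 0.00481). For Acsl1 the second probe was lower at -1.34 ± 0.09 (adjusted p = 1.07e-05) against -0.26 for the brighter. Both Cpt1a probes were lower, at -0.41 and -0.71, and the second probe of Decr1 (0.03) and the other probes of Bdh1 (-0.09 and -0.19) were not called. The files give no probe sequences, so which transcript or stretch each probe reads was not analysed here, and the direction of Cpt2 and Etfa is uncertain.

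**Figure D4:**
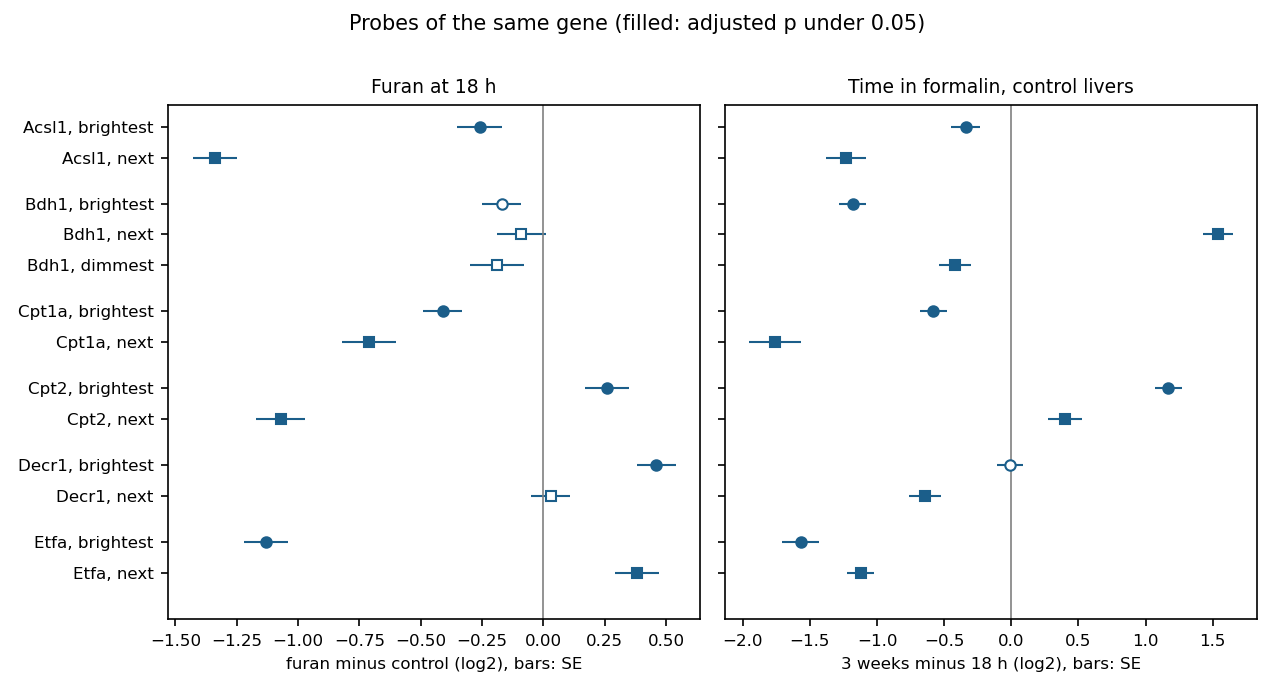
Log2 change of every tested probe of the 6 members with more than 1, for furan at 18 h (left) and for 3 weeks minus 18 h in control livers (right); circles are the brightest probe, squares the others, bars the SE, and filled symbols have an adjusted p under 0.05. Cpt2 and Etfa have filled probes on both sides of 0 at the left (0.26 and -1.07, -1.13 and 0.38), and Bdh1 at the right (-1.18 and 1.54).

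At 3 weeks in formalin no member was called, with 4 furan and 3 control samples. By limma 19 of the 13052 genes were called, 0.146% in all, 0.115% higher and 0.0306% lower. The same test gave an unadjusted p under 0.05 to 4102 of all 29690 probes. It did so for 7 of 37 members (Acaa1b, Acox2, Acsl1, Ech1, Etfb, Pdk4 and Slc27a2). The median change was -0.03 over the members and 0.03 over all genes, and 5 members (13.5%) had groups that did not overlap against 15.5% of all genes. A missed threshold does not show that the members did not differ. Loess without background subtraction called 1 member (lower), the authors' deposited values 2 (Etfb higher and Acsl1 lower), and median centring 5, all higher (Acox2, Cpt2, Decr1, Etfb and Pdk4). No share over all genes is given under these settings either. The lowest adjusted p among the members was that of Pdk4.

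Pdk4 read -0.08, -0.48 and -0.72 in 3-week controls 2, 4 and 6 and 0.72, 0.84, 0.06 and -0.13 in furan samples 41 to 44. Only control 2 and sample 44 crossed, and the estimate was 0.80 ± 0.18 (SE; limma adjusted p = 0.131). The probe was well above background on 3 of 4 furan arrays and on 0 of 4 control arrays. The fold between the group means is therefore given as a bound of at least 1.52-fold. It carries no sampling error, and the change was not called. This bound sets the furan mean against, for each control array, the higher of its lowest signal well above background and the probe's own signal. Acox2 read -0.05, 0.03 and -0.06 in controls and 0.45, 0.50, 0.11 and 0.16 in furan samples. All furan samples were above the controls, with samples 43 and 44 close to them, at 0.33 ± 0.13 (adjusted p = 0.288). Acaa1b read -1.33, -1.24 and -1.53 in controls and -1.59, -2.01, -1.84 and -1.98 in furan samples. The groups just failed to meet, at -0.49 ± 0.15 (adjusted p = 0.203). Slc27a2 read -1.37, -1.20 and -1.40 in controls and -1.56, -1.59, -1.59 and -1.81 in furan samples. Here the furan samples were below the controls, at -0.32 ± 0.13 (adjusted p = 0.313), although under median centring the value was 0.13.

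The difference between the furan changes, 3 weeks minus 18 h, was called for 13 of 37 members, 5 higher and 8 lower (limma interaction of treatment and time, all 15 samples). Over all genes 13.5% were called, 7.78% higher and 5.69% lower, against 35.1% of the members. The median was -0.10 over the members and 0.01 over all genes. Leaving out 18 h control 4 left 8 calls (4 higher and 4 lower), and other single omissions left 9 to 12. Agilent's ratio and the fit without a filter on dim probes each called 7, and each slide alone called 0. This difference shares its samples with both furan comparisons, so the changes at each time are given with it below. All 13 had the same sign on both slides and under Agilent's ratio, the authors' values and median centring. They were picked from these same arrays, so the shared sign is no separate check.

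For Slc25a20 the furan change was -1.14 at 18 h and 0.22 at 3 weeks, a difference of 1.35 ± 0.17 (SE; limma adjusted p = 0.000733). The 3-week samples overlapped, at -0.09, -0.27 and -0.52 in controls and 0.24, -0.15, -0.26 and -0.15 in furan samples. For Etfa it was -1.13 and -0.01, a difference of 1.12 ± 0.19 (adjusted p = 0.00188), and its 3-week samples also overlapped, at -0.59, -0.70 and -0.94 in controls and -0.44, -0.82, -0.62 and -1.12 in furan samples. Its second probe gave a difference of -0.56 (adjusted p = 0.0184), of the opposite sign. The second probes of Cpt2 (1.21, adjusted p = 0.00116) and Acsl1 (0.83, adjusted p = 0.0177) were also called, while their brighter probes were not (-0.10 and -0.27). Ech1, at -1.06 and -0.44, differed by 0.63 ± 0.16 (adjusted p = 0.0201), with 0.47, 0.49 and 0.17 in 3-week controls and 0.36, -0.07, -0.17 and -0.36 in furan samples. Acadm, at -0.49 and 0.12, differed by 0.62 ± 0.14 (adjusted p = 0.00964), with -0.53, -0.26 and -0.57 in controls and -0.18, -0.29, -0.47 and -0.38 in furan samples. Eci1, at -0.70 and -0.11, differed by 0.59 ± 0.18 (adjusted p = 0.0378), with -1.35, -1.25 and -1.43 in controls and -1.19, -1.60, -1.37 and -1.64 in furan samples. The 3-week groups of these genes, too, overlapped. Under median centring the differences of Ech1 (0.45), Acadm (0.48), Eci1 (0.47) and Acox2 (-0.57, adjusted p = 0.0544) kept their sign but were not called, which left 2 higher and 7 lower.

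Among the 8 members with a negative difference, Slc27a2 had -0.99 ± 0.14 (SE; limma adjusted p = 0.00098), from 0.67 at 18 h to -0.32 at 3 weeks. Etfdh had -0.88 ± 0.14 (adjusted p = 0.00131), from 0.89 to 0.01, and its 3-week samples were close together, at -1.33, -1.21 and -1.32 in controls and -1.26, -1.13, -1.29 and -1.42 in furan samples. Hadh had -0.72 ± 0.16 (adjusted p = 0.00786), from 0.80 to 0.08, with -0.47, -0.25 and -0.17 in 3-week controls and -0.15, -0.08, -0.24 and -0.39 in furan samples. Echs1 had -0.66 ± 0.16 (adjusted p = 0.0134), from 0.87 to 0.20, with -0.71, -0.80 and -0.59 in controls and -0.28, -0.50, -0.43 and -0.78 in furan samples. The groups of Etfdh, Hadh and Echs1 overlapped at 3 weeks. Acat1 (-0.59, from 0.69 to 0.09, adjusted p = 0.046), Acadl (-0.58, from 0.55 to -0.03, adjusted p = 0.0336), Hsd17b4 (-0.55, from 0.62 to 0.08, adjusted p = 0.0217) and Acox2 (-0.41, from 0.74 to 0.33, adjusted p = 0.0484) completed the list. Acadl was well above background on 0 of 4 control and 1 of 4 furan arrays at 3 weeks, and Acat1 on 1 and 2, so their 3-week changes of -0.03 and 0.09 are poorly determined.

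Most members had lower ratios after 3 weeks in formalin than after 18 h. The number of sections per sample changed together with the time, so their parts in these changes cannot be told apart. In control livers 24 of 37 members were lower and 6 higher (limma, all 15 samples), against 30.5% lower and 30.6% higher of all genes, and the median change was -0.85 over the members and 0.02 over all genes. In furan livers 23 were lower and 6 higher, against 32.9% and 36.4% of all genes, with medians of -0.62 and 0.03. These comparisons share no sample but share the fit, and 21 members were lower and 4 higher (Acads, Cpt2, Etfb and Slc27a4) in both. Under median centring 27 were lower and 3 higher in controls and 31 lower and 3 higher in furan livers, and Acads was not called in either (0.34 and 0.16). These counts after centring have no share over all genes beside them. Averaged over the 37 members, the log2 ratio was -0.01 to 0.07 in 18 h controls and -0.54 to -0.43 in 3-week controls, and -0.05 to 0.18 and -0.59 to -0.35 in the furan samples. No 3-week sample overlapped an 18 h sample in this average. Mitochondrial members had 12 lower and 4 higher of 20 in both treatments, and peroxisomal members 6 lower and 1 higher of 9 in controls and 6 lower and 0 higher in furan livers. Median centring moved the median of all probes to -0.24 in controls and -0.29 in furan livers, and on that scale the members' medians were -1.16 and -1.13. The share of probes above background was also lower on all 3-week arrays. The mean ratio of the hepatocyte markers was lower in all 3-week than in all 18 h samples of the same treatment, although in furan livers these overlapped after median centring. So was that of the 6 endothelial markers, under either normalization, at -0.01 to 0.12 against -0.50 to -0.45 in controls and 0.00 to 0.10 against -0.66 to -0.51 in furan livers. Means of the 4 tested of 8 lymphocyte markers were higher at 3 weeks without overlap after loess, at -0.45 to -0.26 against 0.14 to 0.39 in controls and -0.56 to -0.32 against -0.01 to 0.29 in furan livers, but those in furan livers overlapped after centring. After loess the adipocyte means were likewise higher at 3 weeks in both treatments and the erythroid means in furan livers, which also overlapped after centring. The stellate means were lower at 3 weeks in controls after loess, and in both treatments after centring. After centring the erythroid means in controls (-0.19 to 0.05 against -0.73 to -0.40) were lower at 3 weeks without overlap. So were the Kupffer cell means in furan livers (0.24 to 0.73 against -0.67 to -0.26). The part of these markers and of the share of probes above background in the changes was not tested.

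The largest falls with time were those of Acaa1b, by -2.07 ± 0.15 in controls (SE; limma adjusted p = 6.09e-09) and -2.17 ± 0.14 in furan livers (adjusted p = 1.22e-09), and of Eci1 in controls (-2.05) and Slc27a2 in furan livers (-2.00). Acaa2 read -0.92, -0.94 and -1.04 in 3-week controls and -0.82, -1.05, -1.04 and -1.30 in 3-week furan samples, changes of -1.16 and -1.28, with no sample near its 18 h values. Fabp1 changed by -0.98 and -1.28, to -0.75, -0.99 and -1.07 in controls and -1.12, -1.25, -0.97 and -1.14 in furan samples. Ehhadh changed by -1.54 and -1.16, to -0.87, -1.21 and -1.18 in controls and -0.90, -1.11, -1.30 and -0.84 in furan samples. Hadha changed by -1.02 and -0.81, to -0.47, -0.47 and -0.62 in controls and -0.57, -0.57, -0.76 and -0.56 in furan samples. None of these genes overlapped between the times in either treatment. For Cpt1a, which read -0.33, -0.07 and -0.04 in 3-week controls and -0.29, -0.35, -0.29 and -0.40 in furan samples, the changes were -0.58 and -0.35. Its second probe gave -1.76 and -1.03, and median centring -1.18 and -1.16 for the brighter.

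**Figure D5:**
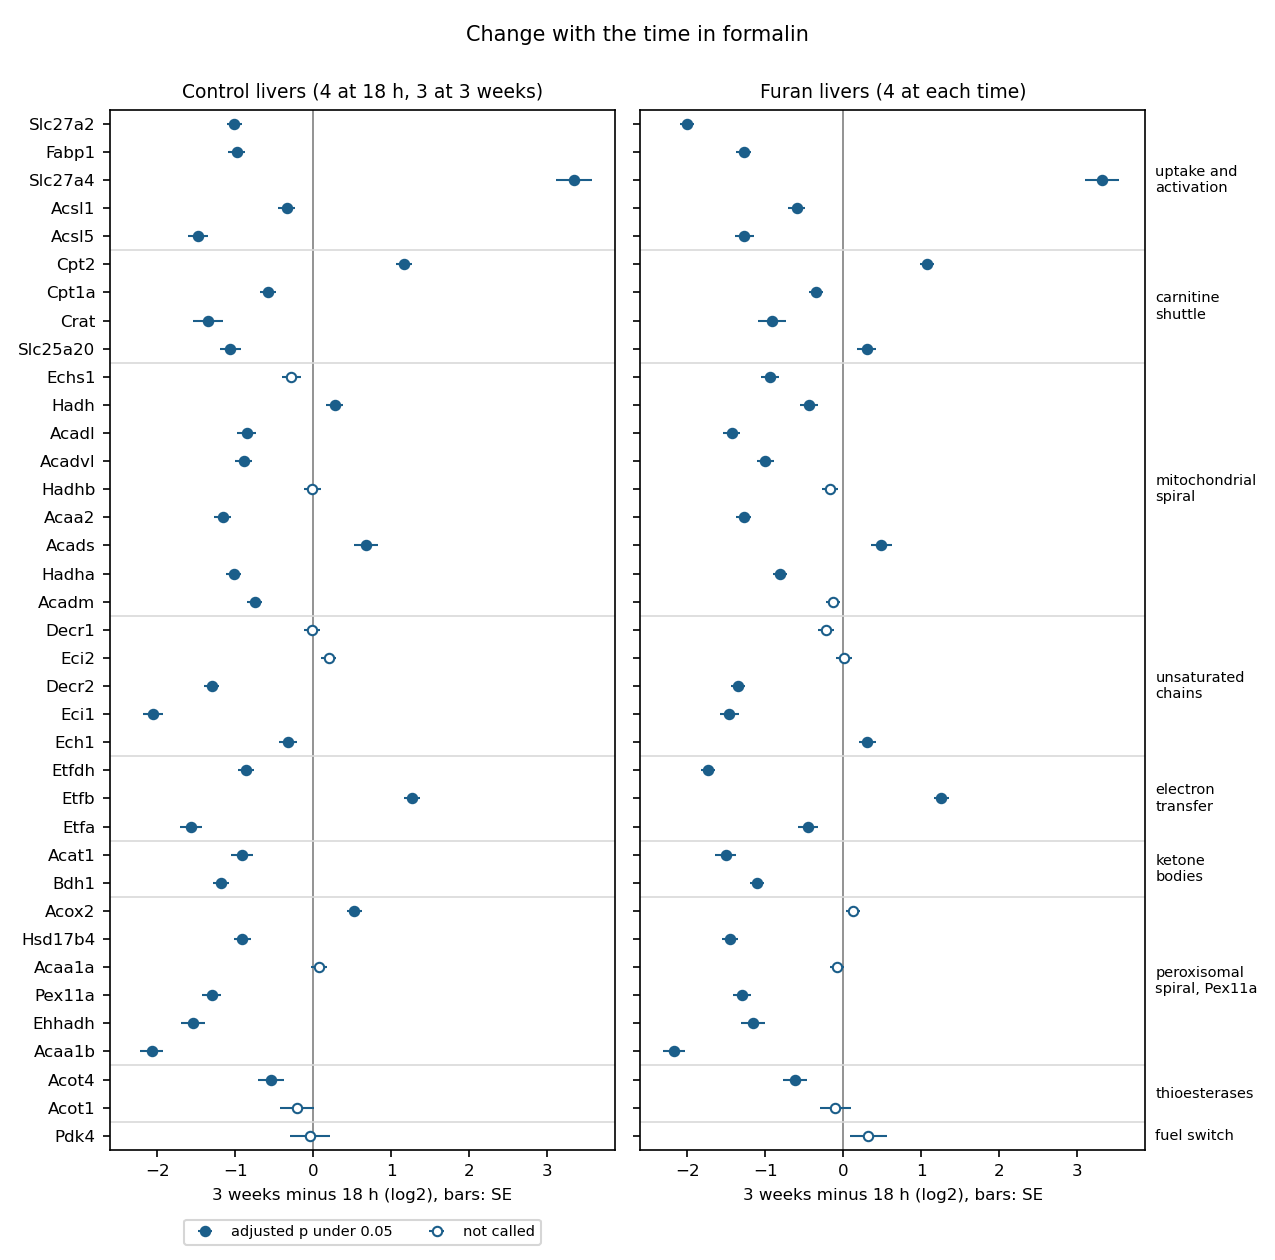
Change from 18 h to 3 weeks in formalin (log2) for the 37 tested members by role, in control livers (left) and furan livers (right); points are limma estimates, bars their SE, and filled points have an adjusted p under 0.05. Most points lie left of 0 in both panels, with Slc27a4 far to the right (3.35 and 3.32); under median centring Hadh and Eci2 in controls and Acox2, Ech1, Eci2 and Slc25a20 in furan livers have the opposite sign.

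Acsl5 changed by -1.48 and -1.27, to -0.87, -0.97 and -1.28 in controls and -0.74, -1.18, -1.12 and -1.55 in furan samples. Acat1 reached -1.22, -0.87 and -1.51 in controls and -1.13, -1.08, -1.22 and -1.01 in furan samples, Acadl -0.83, -0.80 and -0.89 and -1.01, -0.83, -0.97 and -0.67, and Hsd17b4 -1.09, -1.28 and -1.18 and -1.06, -1.09, -1.06 and -1.23. All lay below their 18 h samples. For Acadl, not well above background in the 3-week controls, the fall was 1.80-fold in controls, with the bound equal to the measured fold. Crat, not well above background on any 3-week array, had mean signals at least 2.25-fold lower in controls and at least 1.77-fold lower in furan livers. Acot4, not well above background in the 3-week controls, was 1.44-fold lower in controls, where bound and measured fold were again equal. Slc27a4 stood apart with a rise of 3.35 ± 0.23 in controls (SE; 10.20-fold; limma adjusted p = 3.51e-09) and 3.32 ± 0.22 in furan livers (adjusted p = 1.37e-09). Etfb (1.27 and 1.26), Cpt2 (1.17 and 1.07) and Acads (0.68 and 0.49, not called under centring) were also higher. Acox2 was higher in controls (0.53) and not called in furan livers (0.12), against 0.08 and -0.50 under centring, the last called lower. Opposite calls in the treatments were those of Slc25a20 (-1.06 in controls, 0.30 in furan livers), Ech1 (-0.32 and 0.31) and Hadh (0.28 and -0.44), but under median centring all 3 were negative in both (-1.70 and -0.53, -0.83 and -0.38, -0.14 and -1.03). The probes of Bdh1 did not move as one. Its brightest probe reached -0.81, -0.77 and -0.98 in 3-week controls and -1.06, -0.91, -0.86 and -1.01 in furan samples, a change of -1.18 ± 0.10 in controls, while the next rose by 1.54 ± 0.11 (adjusted p = 6.78e-09) and the dimmest fell by 0.42 on the log2 scale.

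Other genes of the pathway were read from lists of regulators, targets and enzymes, and each is given by its brightest probe unless another is named. Counts are for furan at 18 h after loess, with those after median centring beside them. After loess 51.2% of all 13052 genes were called, 27.1% higher and 24.1% lower. The shares called in the 4 lists, in the order below, were 66.7%, 31.6%, 45% and 69%. No share over all genes is given after centring, so those counts have no background beside them. Of 15 regulators 5 were higher and 5 lower (8 and 2 after centring), with a median of 0.13. Rxra, the partner of PPARA, had -1.32 ± 0.10 (SE; limma adjusted p = 1.16e-05) by its brightest probe, while its other probe was not called (0.06, adjusted p = 0.644). Ppargc1a, a coactivator of mitochondrial genes, had -0.65 (adjusted p = 0.00506; not called at -0.16 under centring) and Hnf4a, a hepatocyte transcription factor, 0.87 (adjusted p = 3.67e-05). Ppara itself was not called (0.16), but was higher under centring (0.72) and in the authors' deposited values (0.24). Of 19 other tested PPARA targets 2 were higher and 4 lower (11 and 2 after centring), with a median of -0.13, and the classical targets Cyp4a10 (0.12; 0.68 and called under centring) and Cyp4a14 (-0.21; 0.34 under centring) were not called by their brightest probes. Of the other Cyp4a10 probes 1 was called lower (-1.22, adjusted p = 9.29e-05) and 1 was not called (-0.24). Of 20 other mitochondrial acyl-CoA and ketone genes 3 were higher and 6 lower (11 and 1 after centring), with a median of 0.03. Of 29 other peroxisomal genes 12 were higher and 8 lower (18 and 3 after centring), with a median of 0.07. Pex5, the import receptor of peroxisomal proteins, had 1.05 (adjusted p = 2.52e-05) and Cat, the peroxisomal catalase, -0.83 (adjusted p = 5.73e-05). At 3 weeks 0 genes of these 4 lists were called by limma after loess (1 in each after centring). An unadjusted p under 0.05 was found for 1, 2, 2 and 2 of them, and for 4102 of all 29690 probes.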

How the data were processed

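Liver RNA of 16 arrays was read from the deposited scanner files. Per the file headers the authors used Agilent Feature Extraction 11.0.1.1, whose median spot and background signals are intensities with no normalization, and whose log10 ratio of sample over reference was used as an alternative after conversion to log2. The authors' deposited value table was found from its values to hold log2 sample over reference, normalized by a method not given in the sources used here. Its columns for the 3-week controls 2.1 and 2.2 each matched the other array best, which averaging makes harmless.

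Background was corrected by normexp (offset 50), ratios were normalized by loess within arrays, and between 187 and 308 marked spots per array were left out. No dye was swapped, per the labels, so dye bias stays in each ratio and cancels between samples only if it is equal. Each gene is given by its tested probe with the highest mean brightness, with other probes given where named, and 27235 probes had a symbol. R 4.3.3 with limma 3.58.1 (lmFit, eBayes) fitted the samples of 1 time for each furan comparison and all 15 samples otherwise, with the slide as a term, two-sided, at an adjusted p of 0.05. The fit was also run on simulated ratios with independent noise and few changed probes. That run did not test the normalization within arrays, and no result above rests on it. Python 3.11.15 and matplotlib 3.10.9 drew the figures. The lowest correlation between arrays was -0.25 over all probes and -0.33 over the tested probes. Over the tested probes the averaged arrays 2.1 and 2.2 correlated at 0.92.

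The members and gene lists were chosen with earlier results of these data known. Full values are given for 22 members: 9 fixed genes, up to 2 with the smallest p at 18 h in each role, and all those called in the difference. The remaining members are given by their change. Alternatives changed the background correction, normalization, filter, probe choice, slide term, variance model, averaging, replicate block and single samples.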

Additional observations from a re-analysis of the deposited data

Results flagged for a closer look

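Among 111 groups of 4 samples, 10 held a sample far from the other 3, and chance flags about 1 in 20 such groups. Furan sample 41 at 18 h was high for Acsl5 (0.31, the others 0.04 to 0.09), Cpt1a (0.15, the others -0.04 to -0.01) and Hadhb (0.21, the others -0.05 to -0.04). Furan sample 43 was low for Etfa at 18 h (-0.39, the others -0.28 to -0.27). At 3 weeks sample 43 was high for Acads (0.93, the others 0.45 to 0.49) and Etfb (1.09, the others 0.80 to 0.81) and low for Hadha (-0.76, the others -0.57 to -0.56). Furan sample 44 was low for Slc27a2 at 3 weeks (-1.81, the others -1.59 to -1.56). Control 2 at 18 h was low for Acadvl (-0.02, the others all 0.06) and Acot4 (0.11, the others 0.34 to 0.38). These are log2 ratios to the pooled reference.

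For 13 members the furan change differed between the times in formalin by the limma test of the difference. The 3-week minus 18 h difference on the log2 scale was 1.35 for Slc25a20, 1.12 for Etfa, 0.63 for Ech1, 0.62 for Acadm and 0.59 for Eci1. It was -0.99 for Slc27a2, -0.88 for Etfdh, -0.72 for Hadh, -0.66 for Echs1, -0.59 for Acat1, -0.58 for Acadl, -0.55 for Hsd17b4 and -0.41 for Acox2. The number of sections per sample changed together with the time.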

How the results depend on the processing

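For furan at 18 h the count of 23 called members fell to 14 on slide 1 alone and 15 on slide 2 alone, fits with fewer samples, and other alternatives stayed within 1.5 times, leaving out single samples giving 18 to 24. Median centring reversed 11 members, Acaa1b (0.16), Acadm (0.04), Acsl1 (0.30), Acsl5 (0.24), Bdh1 (0.38), Hadha (0.20), Acot1 (0.13), Decr2 (0.37), Ehhadh (0.21), Pex11a (0.31) and Slc27a4 (0.28), and split the calls 21 higher and 3 lower; the cause was not tested. At 3 weeks the count of 0 became 1 without background subtraction, 1 with all 15 samples in 1 fit, 2 with the authors' values and 5 with median centring, and stayed 0 without any single sample. For the difference the 13 calls became 7 with Agilent's ratio, 7 with no filter on dim probes, 0 on slide 1 alone and 0 on slide 2 alone, and 8 to 12 without single samples, the lowest without 18 h control 4. For the time in formalin the counts stayed within 1.5 times under all alternatives run, with 27 to 31 in controls and 27 to 29 in furan livers without single samples. With the animal number as a replicate block, 9 members were called in the difference, 27 in controls and 28 in furan livers. Deviations of same-numbered samples correlated at 0.02 to 0.18 over 7 pairs, 2 of them over 0.1, and at -0.22 to 0.16 with the slide removed. With the slide left in, 18 h samples 2, 4, 41, 42 and 43 correlated best with their own number among the 3-week samples of their treatment. Samples 6 and 44 did not. Correlations this weak, around means of few samples, cannot show whether a number marks 1 animal at both times. The main fits therefore used no pairing but do not exclude one, and no block was possible within 1 time. Aquantile leaves log ratios as they are by construction and changed no value. Median centring moved the median of all probes by time from 0.00 to -0.24 in controls and from 0.03 to -0.29 in furan livers, and Agilent's ratio to -0.16 and -0.11. Scale normalization and median centring were chosen after seeing the data. The counts of called members under the alternatives have no share over all genes beside them. Signal over background limits Pdk4, Crat, Acot4, Acadl and Acat1 at 3 weeks, and no value was obtained for Acot2.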
